A study of Mus musculus with 18 samples.

Results

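Regulatory T cells (Treg) of wild type mice were compared by the presence of the surface receptor neuropilin-1 (Nrp1): the 3 Nrp1+ libraries, which the study labels tTreg for thymic Treg, against the 3 Nrp1-negative libraries, labelled pTreg for peripheral Treg. The members were chosen by their titles alone and are 6 of the 18 libraries of the series. The series holds RNA-seq of T cells sorted from mouse spleen, with 2 genotypes and 3 sorted populations in 3 replicates each. Wild type mice carried Foxp3EGFP, a reporter that marks cells expressing Foxp3 with green fluorescent protein, and the CD28-deficient mice were CD28-/- and carried the same reporter. All mice were of the C57BL/6 strain, and the labels state neither age nor sex. The third population, conventional T cells (Tconv), serves below as a reference level, and the CD28-deficient Treg libraries as a second pair of the same subsets. Whether the replicates are separate mice is not stated. P-values therefore describe only how these libraries vary, which may be technical variation. In bulk samples such as these, fewer cells of a type and less RNA per cell cannot be told apart.

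Treg are CD4 T cells that restrain immune responses and depend on the transcription factor Foxp3. Some arise in the thymus and others from mature conventional T cells in the periphery, and surface Nrp1 and the transcription factor Helios (Ikzf2) are widely used in mice to separate them, although neither marker is absolute. Peripheral Treg are best known from the gut and other barrier tissues. The sort was made on Nrp1, so the level of Nrp1 is a check of the labels and not a result.

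Nrp1 stood at 55.6, 69.3 and 83.5 FPKM in the Nrp1+ libraries and 0.579, 0.871 and 0.911 FPKM in the Nrp1-negative libraries, in the order of replicates 1, 2 and 3 as in all sentences below. FPKM are fragments counted per unit of transcript length and of sequenced library size. Foxp3, the gene that carries the reporter, stood at 96.9, 112 and 137 FPKM in the Nrp1+ libraries and 56, 106 and 107 FPKM in the Nrp1-negative libraries, against 0.203, 0.184 and 0.285 FPKM in Tconv, so both subsets carried the Treg marker and the groups overlapped. Cd28, the gene that the other genotype is named for, stood at 57.5, 59.7 and 62.9 FPKM in the Nrp1+ libraries and 31.5, 59.7 and 53.2 FPKM in the Nrp1-negative libraries, with overlapping groups. In CD28-deficient Treg it stood at 71.2, 76.3 and 80.6 FPKM in Nrp1+ and 54.1, 87.3 and 86.8 FPKM in Nrp1-negative libraries. The summed RNA of this gene was thus not lower in that genotype and is no check of the genotype label. The reason was not tested. Depth is unknown because the tables hold FPKM alone, and FPKM sums ran from 524479 to 688042 over the 6 libraries. One library stood apart. Replicate 1 of the Nrp1-negative subset had the lowest median level over the tested genes (2.96 on the log2(FPKM + 1) scale, against 3.60 to 3.87 in the other 5), and the microRNA gene Mir5105 held 20.8% of its FPKM sum, against 3.53% to 10.3% in the other 5. Each result below was therefore also computed without it.

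Markers of other cell types were summed over each list. B cell markers came to 48.4 to 68.5 FPKM in the Nrp1+ and 23.4 to 30.5 FPKM in the Nrp1-negative libraries, so that the groups did not overlap. Myeloid markers came to 29.6 to 45.8 and 29.4 to 90.6 FPKM, with S100a8 and S100a9 (34.1 and 24.9 FPKM) highest in Nrp1-negative replicate 3. Erythroid and platelet markers came to 1.33 to 11.8 and 1.48 to 55.2 FPKM, and the same library held the most of the globins Hba-a2 and Hbb-b1 (34.7 and 15.6 FPKM). CD8 T cell markers came to 6.1 to 7.15 and 6.94 to 9.36 FPKM, mostly from Cd8b1. Cd8a stood at 0.68, 0.494 and 0.0802 FPKM in the Nrp1+ libraries and 1.82, 1.34 and 0.186 FPKM in the Nrp1-negative libraries. Plasma cell markers came to 30.6 to 33.0 and 19.9 to 33.3 FPKM, nearly all from Xbp1. NK cell markers came to 2.41 to 3.59 and 3.03 to 3.71 FPKM. The defining markers Ms4a1 and Pax5 (B cells), Ncr1 (NK cells), and Sdc1 and Tnfrsf17 (plasma cells) were at or near 0 in all 6 libraries. The myeloid marker Csf1r was below 1 FPKM, but 6 of the 15 listed myeloid markers reached 1 FPKM in a library. Lyz2 ran from 3.25 to 12.6, Cd68 from 5.41 to 12.6 and Tyrobp from 1.35 to 3.43 FPKM over the 6 libraries. The part of other cells in the results below was not tested.

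A total of 553 of 11658 tested genes differed between the subsets (4.74%, limma, Benjamini-Hochberg adjusted p under 0.05). Of these, 500 genes (4.29%) were higher and 53 (0.455%) were lower in Nrp1+ Treg. The difference is given as Nrp1+ minus Nrp1-negative on the log2(FPKM + 1) scale, which understates the change of genes at low levels. It was above 1 for 299 and above 2 for 33 of the higher genes, and below -1 for 35 and below -2 for 10 of the lower genes. The 3 libraries of one subset did not overlap the 3 of the other for any of the 553 genes, while this held for 1670 of all tested genes (14.3%). Genes were tested if 3 of the 6 libraries reached 1 FPKM. For a gene below 1 FPKM in all libraries of 1 subset, the lack of overlap was therefore fixed by that filter. The excess of higher genes rests in part on the library that stood apart. The median difference over all tested genes was 0.20, and it was -0.06 without that library and -0.01 after quantile normalization. Without it 483 genes were higher and 286 lower (62.8% higher, against 90.4% with all 6 libraries), and after quantile normalization 785 were higher and 518 lower (60.2% higher). With the replicate number as a block the counts were 1412 and 232 (85.9% higher), and all 553 genes were again called in the same direction. In all, the block called 1644 of the 11658 genes, quantile normalization 1303 and the fit without that library 769. List counts under these fits below are to be read against those totals. In the block fit the spread of each gene was taken mainly from all genes together and little from its own libraries. Its small p-values, here and below, rest on that shared spread. In all 4 of these fits 405 higher and 47 lower genes were called. Other fits kept fewer of the 553 calls, 294 with only the 6 libraries and 322 without Nrp1+ replicate 3. The plot of mean levels in the 2 subsets shows both groups of genes.

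**Figure D1:**
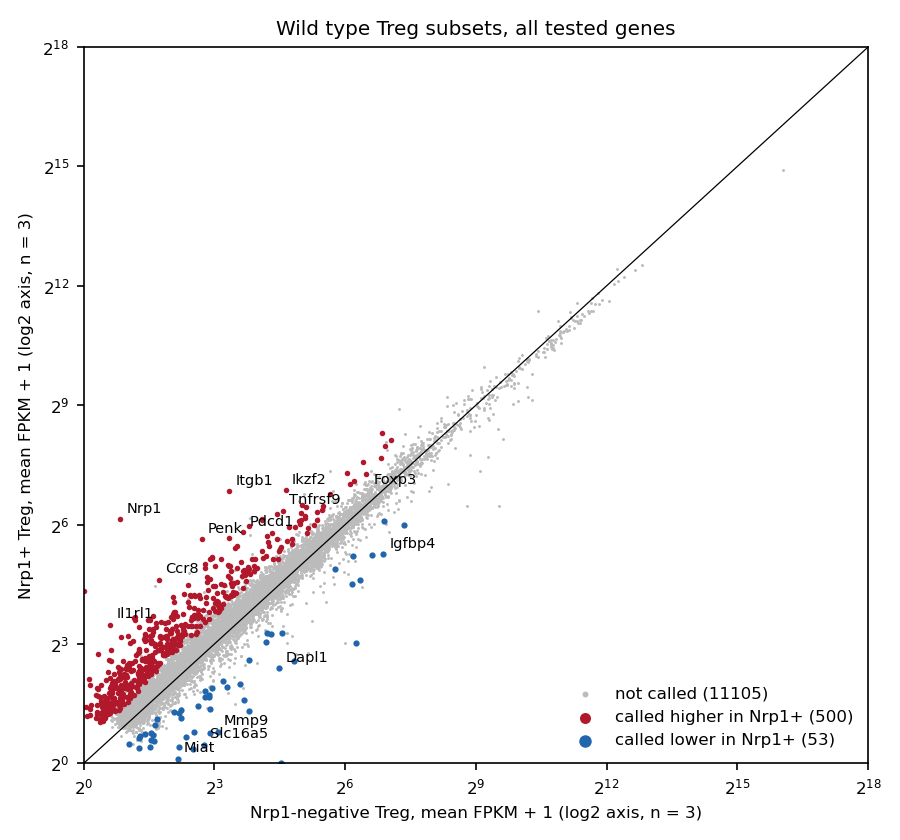
Mean FPKM + 1 of every tested gene in wild type Nrp1-negative Treg (x axis) and Nrp1+ Treg (y axis), n = 3 libraries each, both on log2 axes, with the line of equal level. The 500 genes called higher in Nrp1+ Treg lie above the line and the 53 called lower lie below it, with Nrp1 and Itgb1 farthest above among the labelled genes and Foxp3 close to the line.

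After Nrp1 itself, the named genes with the smallest p-values were the receptor gene Il1rl1, the long noncoding RNA gene Miat and the integrin gene Itgb1. Their promoters are printed here because these genes separate the subsets most clearly. Each is the 250 bases before a RefSeq transcription start on build GRCm38.p6, written in the direction of transcription. Capitals mark a match to one of 3 motifs searched on both strands: TGANTCA (AP-1), TTCNNNGAA (STAT) and TGTTTAC (forkhead factors, the family of Foxp3).
Il1rl1 first start, plus strand, chr1:40429320-40429569: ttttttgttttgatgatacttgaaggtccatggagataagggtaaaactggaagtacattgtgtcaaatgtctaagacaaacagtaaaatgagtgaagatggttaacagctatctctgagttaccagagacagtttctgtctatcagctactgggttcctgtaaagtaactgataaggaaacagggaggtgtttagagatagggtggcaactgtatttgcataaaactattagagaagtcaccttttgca
Il1rl1 second start, plus strand, chr1:40439379-40439628: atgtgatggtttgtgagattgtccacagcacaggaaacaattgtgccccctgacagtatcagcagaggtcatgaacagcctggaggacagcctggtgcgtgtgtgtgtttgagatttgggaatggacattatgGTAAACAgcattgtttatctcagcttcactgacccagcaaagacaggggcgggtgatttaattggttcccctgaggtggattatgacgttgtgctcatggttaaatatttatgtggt
Miat, minus strand, chr5:112228949-112229198: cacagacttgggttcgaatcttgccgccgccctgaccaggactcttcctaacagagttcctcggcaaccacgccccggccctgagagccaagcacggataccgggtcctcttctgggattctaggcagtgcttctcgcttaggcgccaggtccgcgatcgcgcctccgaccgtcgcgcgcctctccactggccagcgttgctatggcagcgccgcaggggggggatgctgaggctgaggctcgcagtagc
Itgb1, plus strand, chr8:128685404-128685653: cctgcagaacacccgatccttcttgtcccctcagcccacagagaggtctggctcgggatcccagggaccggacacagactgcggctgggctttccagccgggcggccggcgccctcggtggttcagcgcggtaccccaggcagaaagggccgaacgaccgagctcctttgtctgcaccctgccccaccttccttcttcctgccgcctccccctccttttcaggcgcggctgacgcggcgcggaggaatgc
The only match in these 4 windows was a forkhead motif on the opposite strand, GTAAACA, 117 to 111 bases before the second start of Il1rl1. Among windows of the same length, the forkhead motif stood in 3.38% of those of genes called higher (473 windows of 352 genes), 2.86% of those of genes called lower (35 windows of 28 genes), 2.13% of those of tested genes and 3.17% of all 32851 promoters. The AP-1 motif stood in 5.92%, 2.86%, 4.04% and 6.75% of the same sets, and the STAT motif in 7.61%, 8.57%, 6.17% and 7.02%. Overlaps between motifs were not merged. A match is a description of the letters and says nothing about binding.

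Itgb1, the integrin beta 1 chain, which pairs with several alpha chains to bind extracellular matrix, had the largest difference after Nrp1 among the named genes. It stood at 108, 113 and 118 FPKM in the Nrp1+ libraries and 5.6, 11.2 and 10.5 FPKM in the Nrp1-negative libraries. The groups lay far apart, with a difference of 3.55 (SE 0.23, adjusted p = 1.68e-06) and of 3.27 without the library that stood apart. Tconv lay between them at 49, 64.7 and 47.3 FPKM. Itgb1 (chromosome 8, 128685654 to 128733200, plus strand, GENCODE release 21 on GRCm38) is a neighbour of Nrp1 (chromosome 8, 128358604 to 128503363, plus strand), with 182.3 kb between the genes. The window of 1 Mb on each side of Nrp1 holds 20 annotated genes with Nrp1 itself counted, of which 8 are protein coding. Nrp1 and Itgb1 were the only 2 that passed the filter on low values. Itgb1 was called. The call of Nrp1 was set by the sort, so Itgb1 alone is a result in this window and no pattern over neighbours can be read from it.

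Genes linked to thymic Treg were higher in Nrp1+ Treg for 9 of 10 tested members of that list, with a median difference of 1.98, against 0.20 over all tested genes. The list was drawn up with earlier results of these data known, so its count is a description. Ikzf2, which encodes Helios, stood at 79.8, 126 and 141 FPKM in the Nrp1+ libraries and 11.1, 29.6 and 30.7 FPKM in the Nrp1-negative libraries, a difference of 2.32 (SE 0.34, adjusted p = 0.00107). The Nrp1-negative libraries were thus lower without overlap, and still above the 1.38, 4.9 and 3.81 FPKM of Tconv. The Tconv libraries of both genotypes were kept out of the main fit because 1 of them was held to carry Treg transcripts, which would widen the spread of Treg genes. Wild type Tconv, the reference level here, held 0.203, 0.184 and 0.285 FPKM of Foxp3 and 1.004, 2.01 and 1.24 FPKM of Il2ra. When all Tconv libraries also entered the spread, in the fit of all 18 libraries, the same difference of Ikzf2 had an SE of 0.74 and an adjusted p of 0.0949. The part of the library held to carry Treg transcripts in such shifts was not tested. Its relative Ikzf4 (Eos), a partner of Foxp3 in gene repression, stood at 29.2, 44.6 and 55.1 FPKM in the Nrp1+ libraries and 5.16, 12.8 and 13.4 FPKM in the Nrp1-negative libraries (difference 1.996, adjusted p = 0.00197). Penk, the precursor of the enkephalin opioid peptides, stood at 44, 42.7 and 60.2 FPKM in the Nrp1+ libraries and 3.38, 6.3 and 6.91 FPKM in the Nrp1-negative libraries (difference 2.96, adjusted p = 1.93e-05). For all 3 genes each Nrp1+ library exceeded every Nrp1-negative one. Swap70, which encodes a guanine nucleotide exchange factor for Rac, was at 24.6, 27.6 and 34.5 FPKM in the Nrp1+ libraries and 4.07, 7.06 and 6.53 FPKM in the Nrp1-negative libraries, with a difference of 2.13 and an adjusted p of 0.000107. Itgb8, whose product pairs with the alpha V integrin to activate latent TGF-beta, was at 4.8, 7.71 and 11.8 FPKM in the Nrp1+ libraries and 0.464, 1.004 and 1.6 FPKM in the Nrp1-negative libraries (difference 2.14, adjusted p = 0.000583). Nt5e (CD73), the ecto-enzyme that makes adenosine from AMP, was nearer the threshold with a difference of 1.04 and an adjusted p of 0.0466, which rose to as much as 0.235 when 1 Nrp1+ library was left out and to 0.32 with all 18 libraries. Sdc4, Cd38, Tnfrsf9 and Pdcd1 were the other called members. Gpr83, a G protein-coupled receptor long used as a Treg marker, was at 24.8, 42 and 43.1 FPKM in the Nrp1+ libraries and 9.58, 33.6 and 25 FPKM in the Nrp1-negative libraries with overlapping groups (difference 0.79, adjusted p = 0.401, and 0.00451 with the replicate block).

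Of 25 tested genes of the core Treg signature, 13 were higher and none lower, with a median of 0.95 (0.67 and 12 higher genes without the library that stood apart). With only the 6 libraries, or with all 18, 8 were called. Foxp3 itself had a difference of 0.41 (SE 0.24, adjusted p = 0.514). Il2ra, the high-affinity chain of the IL-2 receptor, stood at 88.5, 117 and 131 FPKM in the Nrp1+ libraries and 38.3, 97 and 95.9 FPKM in the Nrp1-negative libraries. The groups overlapped, and Nrp1-negative replicate 1 lay below all other libraries. Its difference of 0.64 had an adjusted p of 0.387, or 0.0244 with the replicate block, and it was 0.199 without that library. Ctla4, an inhibitory receptor that competes with CD28 for its ligands, was at 195, 145 and 165 FPKM in the Nrp1+ libraries and 122, 168 and 165 FPKM in the Nrp1-negative libraries (difference 0.15, adjusted p = 0.716). The difference of Icos, a costimulatory receptor, was 0.22 (adjusted p = 0.692) and that of Lag3, an inhibitory receptor for MHC class II, -0.11 (adjusted p = 0.796). These values do not show that the genes were equal in the subsets. Among the 15 tested genes of IL-2 reception and STAT5 signalling limma called none, and 4 were higher and 1 lower at an unadjusted p under 0.05. With the replicate block 4 of them were called higher and 1 lower, after quantile normalization 3 and 1, and without any 1 Nrp1-negative library 1 gene was called. Of all 11658 tested genes the block called 1644 and quantile normalization 1303.

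Receptors of the TNF receptor superfamily, which deliver growth and survival signals to Treg, were higher for 5 of 12 tested members and lower for none (median 0.66), or 3 with only the 6 libraries or with all 18. Tnfrsf8 (CD30) stood at 5.58, 8.02 and 10.6 FPKM in the Nrp1+ libraries and 0.334, 1.23 and 0.878 FPKM in the Nrp1-negative libraries, a difference of 2.32 (adjusted p = 8.76e-05). Tnfrsf9 (4-1BB) stood at 74.5, 74.4 and 93.3 FPKM in the Nrp1+ libraries and 16.2, 29.4 and 22.5 FPKM in the Nrp1-negative libraries, a difference of 1.82 (adjusted p = 0.000257). Tnfrsf4 (OX40) was abundant in both subsets, at 133, 146 and 186 FPKM in the Nrp1+ libraries and 54.6, 77.3 and 63.8 FPKM in the Nrp1-negative libraries, with a difference of 1.24 (adjusted p = 0.00108, and 0.0751 with all 18 libraries). The smallest difference of the 5 was that of Tnfrsf18 (GITR), 0.87 (SE 0.17, adjusted p = 0.00688, and 0.0933 with all 18), at 203 ± 13.7 FPKM (SD, n = 3) in Nrp1+ and 112 ± 19.6 FPKM in Nrp1-negative Treg. Tnfrsf1b (TNFR2) differed by 1.16 (adjusted p = 0.00788, and 0.0563 without Nrp1+ replicate 3). Without the library that stood apart Tnfrsf1a (TNFR1), named here after its values were seen, was called lower (-0.67, adjusted p = 0.0128, against -0.44 and 0.39 with all libraries).

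Among CD28 family members and checkpoint receptors, 6 of 18 tested were higher and none lower (median 0.54). Pdcd1 (PD-1), an inhibitory receptor of antigen-experienced T cells, stood at 41.6, 51.2 and 72.5 FPKM in the Nrp1+ libraries and 7.09, 15.8 and 11.9 FPKM in the Nrp1-negative libraries, a difference of 2.18 (SE 0.27, adjusted p = 0.000307). The Nrp1-negative libraries overlapped those of Tconv, at 14.5, 11.9 and 9.98 FPKM. Tigit, which competes with CD226 for its ligands, stood at 76.6, 81.1 and 100.03 FPKM in the Nrp1+ libraries and 27.3, 36.2 and 35.6 FPKM in the Nrp1-negative libraries, a difference of 1.35 (adjusted p = 0.000887, and 0.0759 with all 18 libraries). Pdcd1lg2, a ligand of PD-1, differed by 1.57 (adjusted p = 0.00139) and Cd200r1, an inhibitory receptor for CD200, by 1.58 (adjusted p = 0.00156). Cd83, a glycoprotein of activated lymphocytes and dendritic cells, stood at 44.1, 48.5 and 57.1 FPKM in the Nrp1+ libraries and 5.5, 13.1 and 8.89 FPKM in the Nrp1-negative libraries and at 1.23, 1.3 and 1.12 FPKM in Tconv. Its difference was 2.39 (adjusted p = 0.000105).

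Genes of follicular helper T cells were higher for 7 of 14 tested members and lower for none (median 0.74), or for 4 without Nrp1+ replicate 3 and for 2 with only the 6 libraries. These were Pdcd1, Bcl6, Tox, Tox2, Cd200, Angptl2 and Cebpa. Bcl6, the lineage-defining repressor of follicular T cells, stood at 13.2, 13.9 and 17.6 FPKM in the Nrp1+ libraries and 5.54, 8.77 and 8.16 FPKM in the Nrp1-negative libraries, a difference of 0.92 (adjusted p = 0.0209). Tox and Tox2, related HMG-box factors, differed by 1.25 (adjusted p = 0.00986) and 1.25 (adjusted p = 0.00913), and without Nrp1+ replicate 3 their adjusted p was 0.0662 and 0.0579. The transcription factor gene Cebpa was low in both subsets, at 5.94, 4.85 and 7.08 FPKM in the Nrp1+ libraries and 1.32, 1.88 and 1.02 FPKM in the Nrp1-negative libraries (difference 1.54, adjusted p = 0.000231).

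Effector Treg genes, which mark antigen-experienced and tissue-type Treg, were higher for 10 of 23 tested members and lower for 1 (median 0.76), or 6 and 1 with only the 6 libraries and 14 and 4 with the replicate block. Klrg1, an inhibitory receptor for cadherins and a marker of short-lived effector Treg, stood at 32.3, 28.2 and 33.1 FPKM in the Nrp1+ libraries and 6.11, 6.12 and 5.52 FPKM in the Nrp1-negative libraries (difference 2.22, SE 0.18, adjusted p = 1.78e-05). Within each subset its libraries were close together, and the value without the library that stood apart was 2.24. Ccr8, the receptor for the chemokine CCL1, stood at 21.6, 19.1 and 29.9 FPKM in the Nrp1+ libraries and 1.34, 3.3 and 2.29 FPKM in the Nrp1-negative libraries (difference 2.91, adjusted p = 1.93e-05). Il1rl1, which encodes the IL-33 receptor ST2, stood at 8.42, 11.5 and 10.8 FPKM in the Nrp1+ libraries and 0.472, 0.591 and 0.515 FPKM in the Nrp1-negative libraries, and the Nrp1-negative libraries were all below 1 FPKM (difference 2.87, SE 0.16, adjusted p = 6.75e-07). The filter on low values admitted Il1rl1 only because all 3 Nrp1+ libraries reached 1 FPKM. Gata3, the lineage factor of Th2 cells and a regulator of Il1rl1 in Treg, stood at 71.3, 64.1 and 83.6 FPKM in the Nrp1+ libraries and 23.7, 36 and 38.2 FPKM in the Nrp1-negative libraries (difference 1.16, adjusted p = 0.00589). These 3 genes were the called members among the 6 tested of the Th2 list. Batf, an AP-1 family factor of effector Treg, differed by 1.098 (adjusted p = 0.00182).

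**Figure D2:**
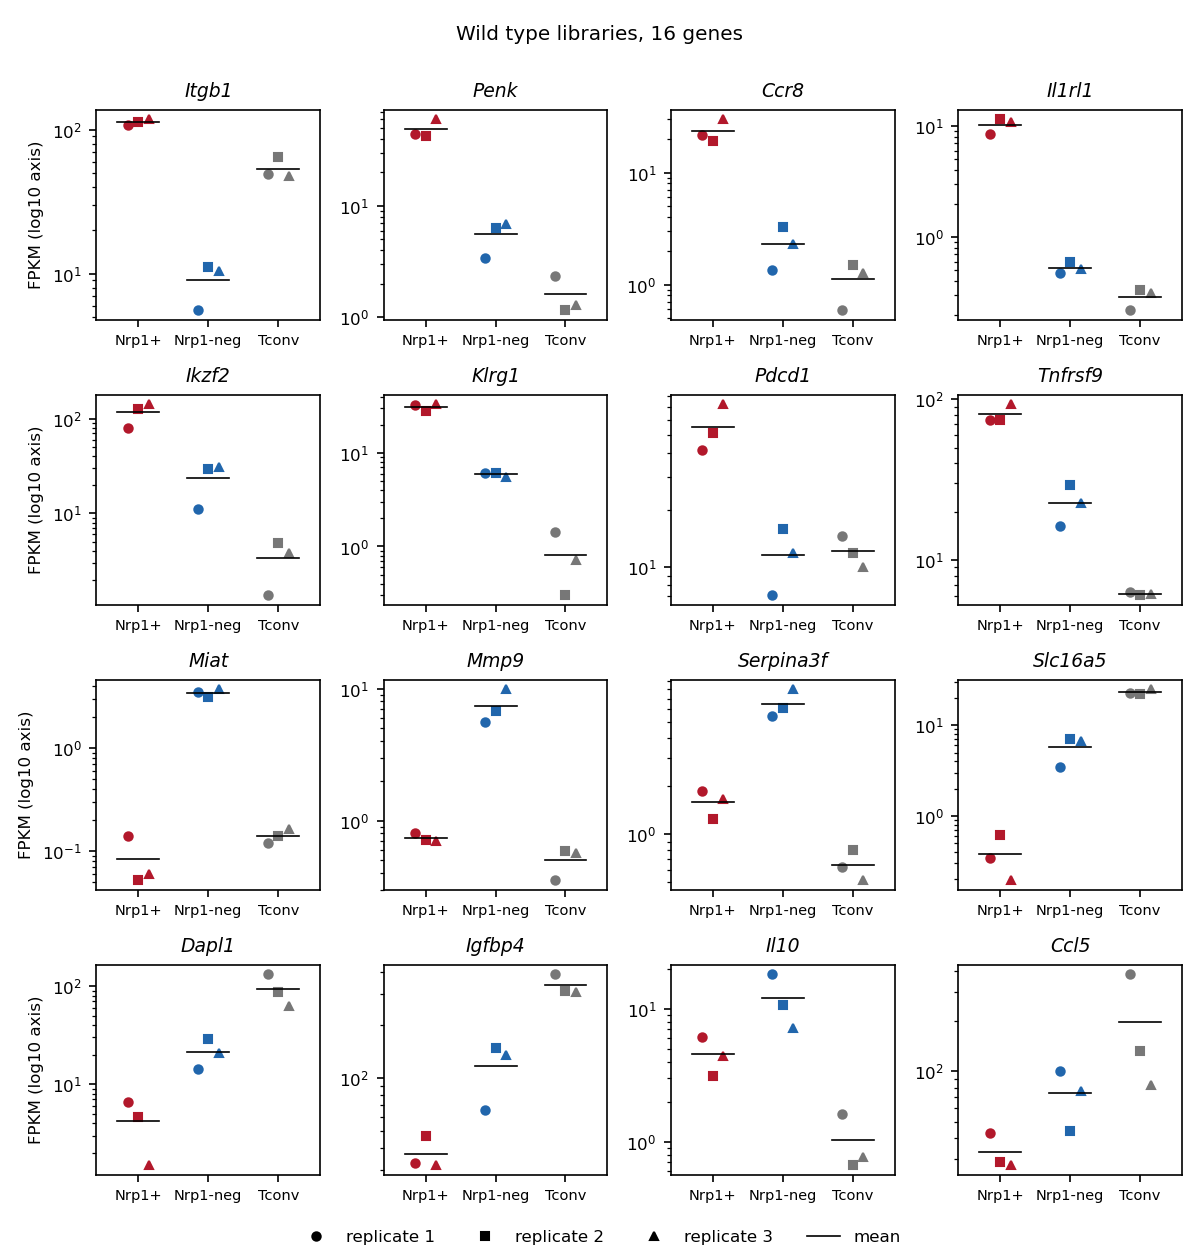
FPKM of 16 genes in each wild type library (log10 axes) in Nrp1+ Treg, Nrp1-negative Treg and Tconv, with a marker shape for each replicate number and a line at the mean of 3. The first 8 genes are higher in Nrp1+ Treg without overlap, Miat, Mmp9 and Serpina3f are highest in Nrp1-negative Treg, Slc16a5, Dapl1 and Igfbp4 rise from Nrp1+ Treg through Nrp1-negative Treg to Tconv, and Il10 and Ccl5 did not pass the test.

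Of 20 tested cytokine genes, 5 were higher and none lower (7 and none without the library that stood apart). It was 3 without Nrp1+ replicate 3 or with only the 6 libraries in the fit, 7 higher and 1 lower with all 18, and 11 higher and 3 lower with the replicate block. Ebi3, a subunit of the inhibitory cytokine IL-35 and of IL-27, stood at 19, 18.7 and 20.4 FPKM in the Nrp1+ libraries and 5.07, 7.08 and 6.65 FPKM in the Nrp1-negative libraries (difference 1.498, adjusted p = 0.000606). Csf1, the growth factor of macrophages, stood at 10.5, 11.1 and 13.5 FPKM in the Nrp1+ libraries and 4.25, 4.34 and 5.15 FPKM in the Nrp1-negative libraries (difference 1.18, adjusted p = 0.00156). Ccl1, the ligand of CCR8, was low throughout, at 2.99, 3.21 and 4.04 FPKM in the Nrp1+ libraries and 0.327, 0.314 and 0.919 FPKM in the Nrp1-negative libraries (difference 1.55, adjusted p = 0.000156). Tnfsf10 (TRAIL), a death-inducing ligand, differed by 1.44 (adjusted p = 0.0115, and up to 0.0757 with 1 Nrp1+ library left out). Tnfsf11 (RANKL) was the fifth.

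The anti-inflammatory cytokine gene Il10 stood at 6.13, 3.1 and 4.39 FPKM in the Nrp1+ libraries and 18.2, 10.7 and 7.16 FPKM in the Nrp1-negative libraries. Its groups did not overlap and the Nrp1-negative libraries were higher, but the difference of -1.18 (SE 0.32) missed the threshold with an adjusted p of 0.0521. It passed with the replicate block (adjusted p = 7.17e-07, and 0.000253 on the 6 libraries alone) and with all 18 libraries (0.0234). It also passed with Nrp1-negative replicate 3 or Nrp1+ replicate 1 left out. The difference was -0.86 (adjusted p = 0.142) without the library that stood apart, which held the highest level. Ccl5, a chemokine of memory and cytotoxic T cells, stood at 42.9, 28.7 and 27.5 FPKM in the Nrp1+ libraries and 101, 44.1 and 76.2 FPKM in the Nrp1-negative libraries, and at 381, 132 and 82.7 FPKM in Tconv. Its groups did not overlap, and the difference of -1.09 had an adjusted p of 0.0765, or 6.08e-05 with the block. It was called with Nrp1-negative replicate 2 left out and had an adjusted p of 0.179 without replicate 1.

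Adhesion molecules were higher for 7 of 19 tested members and lower for none, with Itgb1 and Itgb8 in front (5 higher and 2 lower, Itgb3 and Selplg, without the library that stood apart). The count was 4 without Nrp1+ replicate 3 or with only the 6 libraries, and 11 higher and 1 lower with the replicate block. Cd81, a tetraspanin, stood at 65.4, 69.3 and 92.9 FPKM in the Nrp1+ libraries and 11, 28.3 and 23.1 FPKM in the Nrp1-negative libraries (difference 1.899, adjusted p = 0.000913). Alcam (CD166), an adhesion molecule that binds CD6, differed by 1.39 (adjusted p = 0.00199). Itgae (CD103), which binds E-cadherin, and Itgav, the alpha V chain, differed by 1.17 (adjusted p = 0.0316) and 1.19 (adjusted p = 0.0463). Both lost their calls without the library that stood apart (adjusted p = 0.0644 and 0.0675), and with all 18 libraries the adjusted p of Itgav was 0.111. Lrrc32 (GARP), which docks latent TGF-beta on the surface of Treg, stood at 62, 77.1 and 94.5 FPKM in the Nrp1+ libraries and 17.3, 37.7 and 36.6 FPKM in the Nrp1-negative libraries (difference 1.38, adjusted p = 0.00661, and 0.428 with all 18 libraries), against 0.0403 FPKM in Tconv. With Itgb8, Itgae and Itgav it made up the 4 of 17 called genes of TGF-beta activation and signalling, of which Lrrc32 and Itgb8 were called without that library. That list also had 2 calls without Nrp1+ replicate 2 or 3, with no filter and with the 6 or all 18 libraries, and 6 higher and 1 lower with the replicate block or after quantile normalization. Of the semaphorins, neuropilins and plexins other than Nrp1, which guide axons and bind one another, Plxnc1 was higher (0.87, adjusted p = 0.0338) and its ligand Sema7a lower (-0.597, adjusted p = 0.017) among 10 tested. Both calls were lost with single libraries left out, at adjusted p up to 0.179 and 0.0785.

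Regulators of G protein signalling and of neural-type signalling were among the largest differences. Rgs16 and Rgs9 accelerate the shut-off of G protein signals. Rgs9 stood at 7.18, 8.76 and 17.3 FPKM in the Nrp1+ libraries and 0.748, 1.52 and 1.52 FPKM in the Nrp1-negative libraries (difference 2.35, adjusted p = 0.000178). Rgs16 stood at 83, 31.2 and 69.6 FPKM in the Nrp1+ libraries and 21.6, 7.83 and 9.46 FPKM in the Nrp1-negative libraries, lowest in replicate 2 of both subsets, and its groups did not overlap (difference 2.17, SE 0.39, adjusted p = 0.00423). Ptger2, a receptor for prostaglandin E2, differed by 1.87 (adjusted p = 0.00357). Gpr15, a homing receptor of the colon, stood at 9.02, 14.2 and 10.8 FPKM in the Nrp1+ libraries and 1.12, 5.11 and 3.22 FPKM in the Nrp1-negative libraries (difference 1.68, adjusted p = 0.00928, and 0.0519 without Nrp1+ replicate 2). In all, 5 of 16 tested genes of G protein signalling (9 with the replicate block, 3 without Nrp1+ replicate 3 or with only the 6 libraries) and 4 of 11 of neural type (5 higher and 2 lower after quantile normalization) were higher and none lower, the second set with Nrn1 (neuritin), at 27.6, 28.6 and 34.9 FPKM in the Nrp1+ libraries and 4.07, 8.65 and 8.44 FPKM in the Nrp1-negative libraries (difference 2.01, adjusted p = 0.000399). Npas4, a transcription factor induced by calcium signals in neurons, stood at 8.66, 9.02 and 16.9 FPKM in the Nrp1+ libraries and 0.786, 1.71 and 1.18 FPKM in the Nrp1-negative libraries (difference 2.45, adjusted p = 8.76e-05). Ptpn5, a tyrosine phosphatase best known from the striatum, stood at 4.69, 4.21 and 8.13 FPKM in the Nrp1+ libraries and 0.279, 0.295 and 0.196 FPKM in the Nrp1-negative libraries (difference 2.36, adjusted p = 1.78e-05). Actg2, a smooth muscle actin, and Noxa1, an activator of NADPH oxidase, completed the 15 largest differences at 2.52 (adjusted p = 7.74e-05) and 2.197 (adjusted p = 0.000138).

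Immediate early genes, which respond to antigen receptor signals within minutes to hours, were higher for 3 of 17 tested members and lower for none, with a median of -0.0036. Egr2 differed by 1.19 (adjusted p = 0.00788), Egr3 by 1.39 (adjusted p = 0.0407) and the orphan nuclear receptor gene Nr4a3 by 1.23 (adjusted p = 0.0336). Without the library that stood apart the adjusted p of Egr3 was 0.054 and that of Nr4a3 0.0901, and Egr2 lost its call without Nrp1+ replicate 3 (0.0579). With all 18 libraries Egr3 and Nr4a3 were at 0.0737 and 0.101. None of the list was called without Nrp1+ replicate 3 or with only the 6 libraries, and 5 were higher and 1 lower with the replicate block. Among 24 tested components of antigen receptor signalling limma called none, with 2 higher and 1 lower at an unadjusted p under 0.05. The replicate block called 2 higher and 1 lower, and quantile normalization 3 and 2, while over all 11658 tested genes they called 1644 and 1303. Of 17 NF-kB genes 1 was called, near the 4.74% of all tested genes, and 8 were higher at an unadjusted p under 0.05. With the replicate block 6 were called higher, after quantile normalization 4, and without Nrp1+ replicate 2 or 3 or with only the 6 libraries none. The called gene was Bcl2l1 (Bcl-xL), an inhibitor of apoptosis.

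Of 19 tested genes of survival and death, 6 were higher and none was lower (3 higher without Nrp1+ replicate 3, and 2 with only the 6 libraries). Among them was Bcl2a1d, an anti-apoptotic member of the Bcl-2 family, with a difference of 1.19 (adjusted p = 0.00203). Bcl2a1b and Bcl2a1d are close paralogs, so reads may have been split between them. Pmaip1 (Noxa), a pro-apoptotic member, differed by 1.005 (adjusted p = 0.0261), and by 0.698 (adjusted p = 0.221) after quantile normalization. The difference of Bcl2, an inhibitor of apoptosis, was 0.05 (adjusted p = 0.946). Cell cycle genes were higher for 6 of 25 tested members and lower for none (median 0.36), or for 3 without Nrp1+ replicate 1 or 3 and for 1 with only the 6 libraries. Mki67, the proliferation marker Ki-67, stood at 3.64, 3.38 and 3.66 FPKM in the Nrp1+ libraries and 1.41, 1.86 and 1.8 FPKM in the Nrp1-negative libraries (difference 0.76, SE 0.14, adjusted p = 0.00466). Tk1, thymidine kinase, stood at 11.3, 11.7 and 13.9 FPKM in the Nrp1+ libraries and 3.68, 5.85 and 4.86 FPKM in the Nrp1-negative libraries (difference 1.21, adjusted p = 0.00197). In glycolysis 2 of 17 were higher, Slc16a3, a lactate exporter (1.11, adjusted p = 0.00215), and Hk2, a hexokinase (0.67, adjusted p = 0.0338, and 0.0639 without the library that stood apart). The replicate block and quantile normalization each called 4 higher and 1 lower in glycolysis, and 1 call was left without Nrp1+ replicate 2 or 3. The 22 tested genes of the respiratory chain gave no call by limma, nor any at an unadjusted p under 0.05, and their median was 0.10. The 24 ribosomal protein genes gave no call and 1 lower gene at an unadjusted p under 0.05. The 19 genes of cholesterol and fatty acid synthesis gave no call and 1 higher gene at that level. The replicate block called 2 of them higher, and quantile normalization 2 higher and 2 lower. Of all 11658 tested genes these fits called 1644 and 1303.

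**Figure D3:**
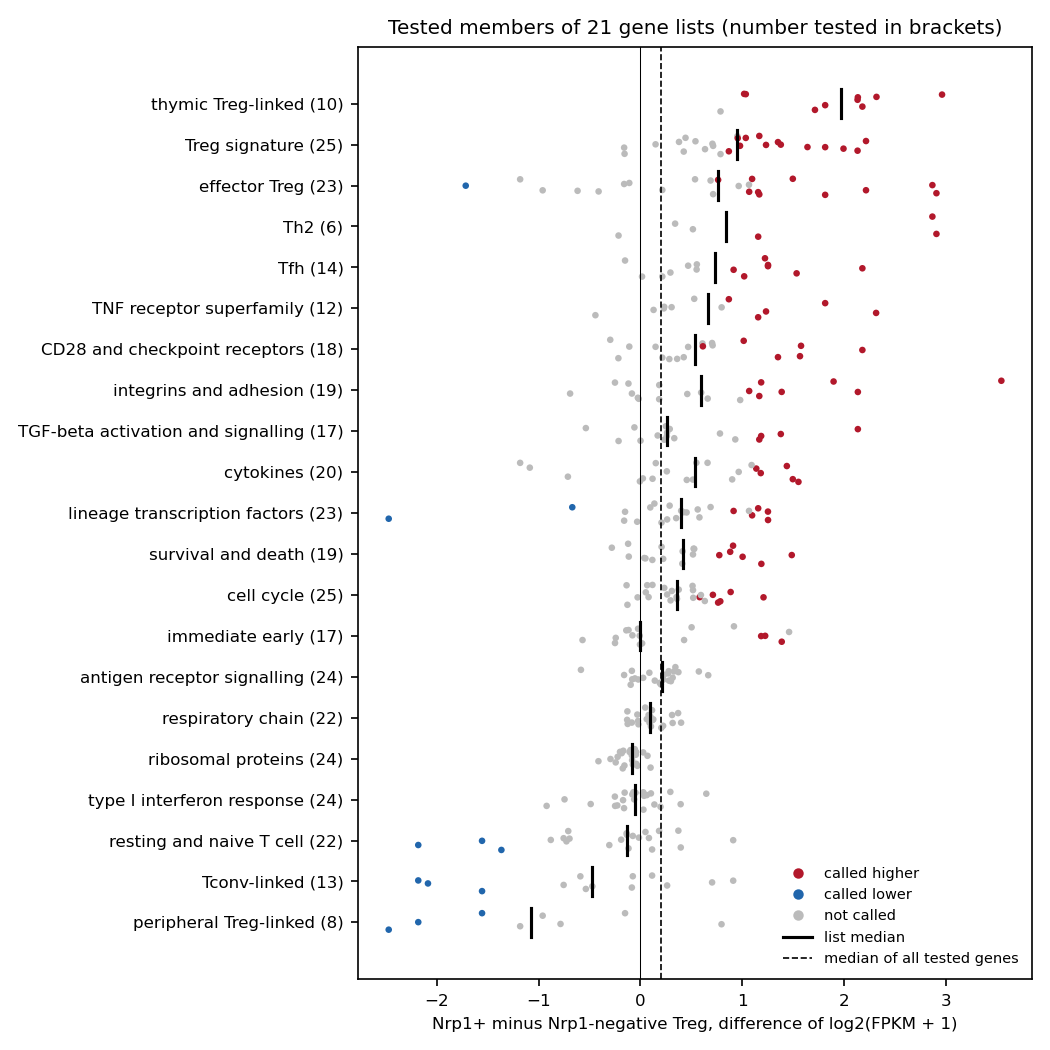
Difference between Nrp1+ and Nrp1-negative Treg on the log2(FPKM + 1) scale for each tested gene of 21 lists, with a bar at each list's median and a dashed line at 0.20, the median of all tested genes. The thymic Treg-linked list has 9 of 10 genes called higher, while the resting, Tconv-linked and peripheral Treg-linked lists have 3 genes called lower each and none called higher.

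Genes linked to peripheral Treg were lower in Nrp1+ Treg for 3 of 8 tested members and higher for none (median -1.07). With no filter, without Nrp1-negative replicate 2 or without Nrp1+ replicate 3 this was 1 member, and with the replicate block 6 were lower and 1 was higher. Dapl1 and Igfbp4 were among them. Mmp9, a gelatinase that degrades collagen, was high in the Nrp1-negative libraries alone, at 0.7996, 0.71 and 0.705 FPKM in the Nrp1+ libraries and 5.56, 6.83 and 9.9 FPKM in the Nrp1-negative libraries and 0.354, 0.591 and 0.566 FPKM in Tconv (difference -2.25, adjusted p = 4.79e-05). Miat, a long noncoding RNA, stood at 0.142, 0.0526 and 0.0605 FPKM in the Nrp1+ libraries and 3.49, 3.16 and 3.73 FPKM in the Nrp1-negative libraries, and its Tconv libraries at 0.122, 0.139 and 0.165 FPKM. The Nrp1-negative libraries were the only wild type ones above 1 FPKM, with a difference of -2.04 (SE 0.13, adjusted p = 1.68e-06). Mmp9 and Miat were below 1 FPKM in all Nrp1+ libraries. The filter on low values thus admitted them only because all 3 Nrp1-negative libraries reached 1 FPKM, and their lack of overlap is no separate result. Without the library that stood apart the differences of Mmp9 and Miat were -2.41 and -2.03.

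Several other genes had their highest wild type mean in Nrp1-negative Treg. Serpina3f, a serine protease inhibitor, stood at 1.86, 1.24 and 1.66 FPKM in the Nrp1+ libraries and 5.43, 6.1 and 8.02 FPKM in the Nrp1-negative libraries (difference -1.53, adjusted p = 0.000163) and at 0.644 FPKM on average in Tconv. Serpina3f belongs to a cluster of near-identical genes, so its reads are uncertain. Gbp1, of a family of interferon-inducible GTPases with close copies, stood at 2.28, 2.56 and 1.25 FPKM in the Nrp1+ libraries and 5.12, 16.2 and 14.3 FPKM in the Nrp1-negative libraries (difference -1.98, adjusted p = 0.00203). Cited4, a transcriptional coactivator, differed by -1.69 (adjusted p = 0.000261) and Klrb1f, a lectin-like receptor, by -1.73 (adjusted p = 0.00045). Interferon-response genes as a list gave no call by limma among 24 tested (1 higher and 2 lower at an unadjusted p under 0.05), but 5 were lower without the library that stood apart. These were Ifit3, Oas2, Gbp2, Igtp and Iigp1, named after their values were seen, with differences from -1.28 (Oas2) to -0.59 (Gbp2). After quantile normalization 5 genes of the list were lower and 1 was higher, and with the replicate block 2 and 1. Of all 11658 tested genes, 769 were called without that library, 1303 after quantile normalization and 1644 with the block.

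A second set of lower genes had its highest mean in Tconv. Slc16a5, of the monocarboxylate transporter family, stood at 0.343, 0.612 and 0.196 FPKM in the Nrp1+ libraries and 3.47, 7.02 and 6.79 FPKM in the Nrp1-negative libraries and at 22.5, 22.1 and 25 FPKM in Tconv, so that the populations were ordered without overlap (difference between the subsets -2.25, adjusted p = 0.00765). Igfbp4, a binding protein of insulin-like growth factors, stood at 33, 46.8 and 32.1 FPKM in the Nrp1+ libraries and 65.9, 148 and 136 FPKM in the Nrp1-negative libraries and at 388, 314 and 309.8 FPKM in Tconv (difference -1.56, adjusted p = 0.0319). Dapl1, a gene of resting T cells, stood at 6.55, 4.66 and 1.5 FPKM in the Nrp1+ libraries and 14.3, 29.2 and 20.6 FPKM in the Nrp1-negative libraries and at 132, 86.3 and 63.2 FPKM in Tconv (difference -2.18, SE 0.56, adjusted p = 0.0413, or 0.0628 without the library that stood apart). Pde3b, a phosphodiesterase, stood at 0.866, 0.896 and 0.352 FPKM in the Nrp1+ libraries and 3.8, 8.06 and 7.42 FPKM in the Nrp1-negative libraries and at 16.9, 40.8 and 36.7 FPKM in Tconv (difference -2.09, adjusted p = 0.0317). Als2cl followed the same order of means, with 188 FPKM in Tconv and a difference of -1.65 (adjusted p = 0.00978). Ly6c1, a surface antigen of resting and memory T cells, differed by -1.37 (adjusted p = 0.00808). Plac8, which was not highest in Tconv (4.33 FPKM on average), stood at 1.74, 3.4 and 3.88 FPKM in the Nrp1+ libraries and 4.82, 12 and 16.1 FPKM in the Nrp1-negative libraries (difference -1.49, adjusted p = 0.0344). The calls of Dapl1, Pde3b, Igfbp4 and Plac8 moved with the libraries in the fit. Each was lost with 4 or 5 of the 6 wild type libraries left out in turn, at adjusted p up to 0.22, 0.14, 0.136 and 0.13, while all 4 passed with the replicate block.

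Replicate 3 of CD28-deficient Nrp1+ Treg, which enters these tests only through the spread, stood apart for Dapl1, Pde3b, Igfbp4 and Slc16a5. In that genotype the Nrp1+ libraries held 3.73, 6.74 and 28.4 FPKM of Dapl1, 0.499, 0.998 and 8.62 FPKM of Pde3b, 19.2, 20.9 and 60.04 FPKM of Igfbp4 and 0.369, 0.472 and 4.89 FPKM of Slc16a5, highest in replicate 3 each time. With only the 6 wild type libraries in the fit the adjusted p was 0.0065 for Dapl1, 0.000704 for Pde3b, 0.0137 for Igfbp4 and 0.0537 for Plac8. With that 1 library left out, an alternative chosen after seeing the data, it was 0.00567, 0.000501, 0.005 and 0.0339.

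Resting and naive T cell genes were lower for 3 of 22 tested members (Dapl1, Igfbp4 and Ly6c1) and higher for none, with a median of -0.13. Without the library that stood apart 6 were lower, after quantile normalization 7 were lower and 1 higher, and with the replicate block 8 and 1. The count fell to 1 with no filter or without Nrp1-negative replicate 2 or 3, and to 0 without Nrp1+ replicate 3. Ccr7, the lymph node homing receptor, stood at 61.4, 77.9 and 65 FPKM in the Nrp1+ libraries and 75.4, 150.3 and 122 FPKM in the Nrp1-negative libraries, a difference of -0.71 (adjusted p = 0.175) that was called without that library (-0.99, adjusted p = 0.0167) and with the block (adjusted p = 0.00853). It was also called after quantile normalization (-0.80, adjusted p = 0.0168). Of 15 tested chemokine receptors 1 was higher (Ccr8) and 1 lower, and without that library Ccr7, Ccr2 and the gut-homing receptor gene Ccr9 were also lower (Ccr9 -1.15, adjusted p = 0.00183, against -0.78 and 0.13 with all libraries). With the replicate block 3 chemokine receptors were higher and 4 lower. Ccr2 and Ccr9 were named after their values were seen. Genes linked to Tconv were lower for 3 of 13 tested, Pde3b, Igfbp4 and Dapl1, with a median of -0.47. None was called with no filter or without Nrp1-negative replicate 2 or 3 or Nrp1+ replicate 3, 1 was without Nrp1+ replicate 1 or 2, and 6 were lower and 2 higher with the replicate block. Their summed level ran from 765.0 to 798.2 FPKM in Nrp1+, from 682.1 to 1224 FPKM in Nrp1-negative Treg and from 2133 to 2324 FPKM in Tconv. Cd40lg, the ligand of CD40 on helper T cells, stood at 13.3, 14.3 and 15.4 FPKM in the Nrp1+ libraries and 12.9, 25.5 and 24.9 FPKM in the Nrp1-negative libraries and at 75.7, 67.2 and 71.2 FPKM in Tconv. The part of conventional cells in these differences was not tested.

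The called genes were also placed against the mean of wild type Tconv. Of the 500 genes higher in Nrp1+ Treg, the mean of Tconv was below both subsets for 358 (71.6%), between them for 132 (26.4%) and above both for 10 (2%). Of the 53 lower genes, it was below both for 12 (22.6%), between for 19 (35.8%) and above both for 22 (41.5%). Over all tested genes the shares were 19.1%, 29.1% and 51.9%. The choice of called genes enters these shares through the Treg libraries, so they are given as a description.

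Some genes used as B cell markers were higher in Nrp1+ Treg. Cd74, the MHC class II chaperone, stood at 37.3, 32.1 and 49.7 FPKM in the Nrp1+ libraries and 15.3, 14.7 and 18.6 FPKM in the Nrp1-negative libraries (difference 1.23, adjusted p = 0.0025), and Cd79b, a chain of the B cell receptor, at 9.9, 9.89 and 9.85 FPKM in the Nrp1+ libraries and 3.31, 6.53 and 3.9 FPKM in the Nrp1-negative libraries (difference 1.01, adjusted p = 0.0117). With Cd22 (0.61, adjusted p = 0.00967, and 0.195 after quantile normalization) they were the 3 of 6 tested B cell markers that were called, all higher, and the summed level of the 13 listed markers was 48.4 to 68.5 FPKM in Nrp1+ and 23.4 to 30.5 FPKM in Nrp1-negative Treg. Cd79a reached 2.27 FPKM and H2-Ab1 2.63 FPKM, while Ms4a1 and Pax5 were at or near 0 in all 6 libraries, and the part of B cells in these calls was not tested. With only the 6 libraries in the fit 1 B cell marker was called. Genes of cytotoxic granules and killer lectins were higher for 5 of 10 tested and lower for 1, Klrb1f. Cst7, an inhibitor of granule proteases, stood at 84.3, 80.3 and 103 FPKM in the Nrp1+ libraries and 21.5, 37.5 and 34.9 FPKM in the Nrp1-negative libraries (difference 1.51, adjusted p = 0.000625). Nkg7, a granule protein, stood at 24.7, 17.5 and 30.4 FPKM in the Nrp1+ libraries and 13, 7.34 and 7.37 FPKM in the Nrp1-negative libraries (difference 1.31, adjusted p = 0.0134, 0.0915 after quantile normalization, 0.0877 with all 18 libraries and up to 0.087 with 1 library left out). Klrb1c (NK1.1) was near 1 FPKM or below in all libraries and higher in Nrp1+ ones (0.65, adjusted p = 0.0107, and 0.0643 after quantile normalization), while Eomes, a factor of NK and CD8 T cells, was lower (-0.67, adjusted p = 0.0362, 0.0744 without the library that stood apart and 0.104 with all 18). Myeloid markers were not called in any of 6 tested (none at an unadjusted p under 0.05), and 1 was lower with the replicate block or after quantile normalization.

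The CD28-deficient libraries give a second pair of the same subsets that shares no library with the wild type pair, although both enter one fit of the spread. There 469 genes were called (4.02%). Of the 500 genes higher in wild type Nrp1+ Treg, 498 had the same sign in CD28-deficient Treg and 325 (65%) were called in the same direction, and of the 53 lower genes 51 and 35 (66%) were. None was called in the opposite direction. Over all 11658 tested genes, 7343 had the same sign in both genotypes and 467 (4.01%) were called in CD28-deficient Treg with their wild type sign. Median differences were 1.09 in wild type and 0.96 in CD28-deficient Treg for the higher genes, and -1.15 and -1.25 for the lower genes. In CD28-deficient Treg the difference of Itgb1 was 3.58, that of Ikzf2 2.84 and that of Il1rl1 2.88, all called. The plot of called genes sets the 2 genotypes side by side.

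**Figure D4:**
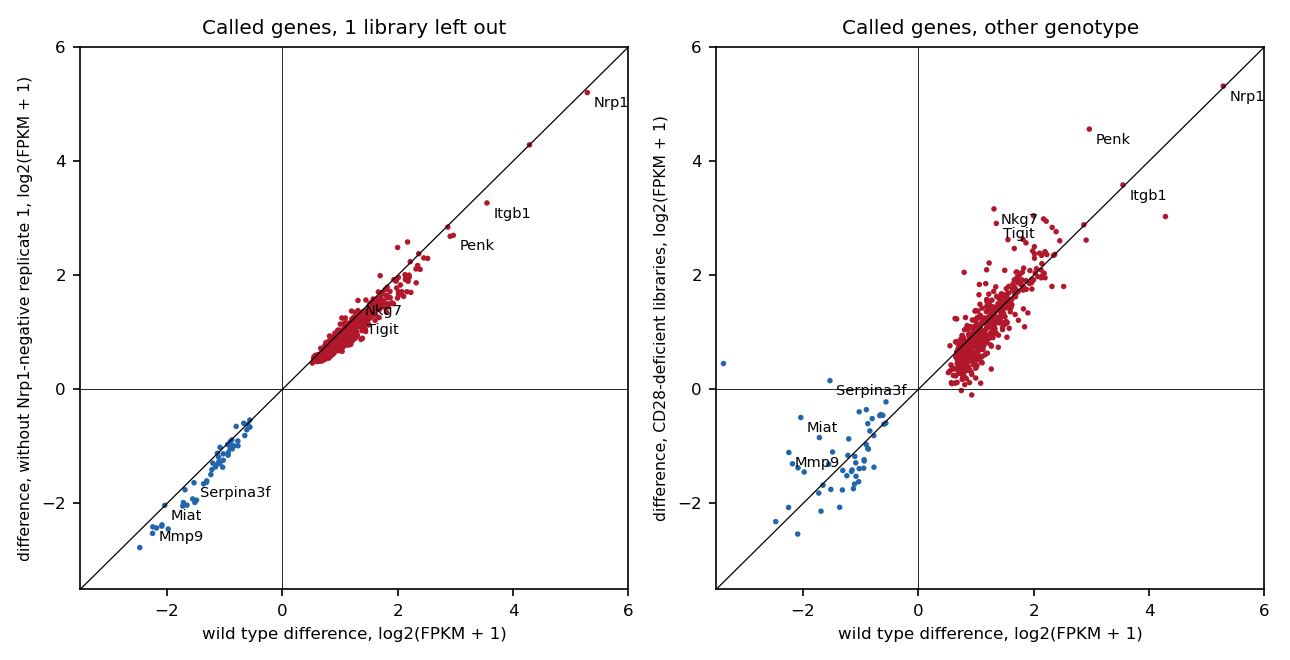
Each point is one of the 553 called genes, with its wild type difference on the x axis and, on the y axis, the same difference without Nrp1-negative replicate 1 (left) or in CD28-deficient libraries (right), all on the log2(FPKM + 1) scale, with the line of equal values. No called gene changes sign on the left, and on the right 549 of 553 keep their sign, with Miat and Serpina3f nearer 0 in CD28-deficient Treg.

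The test of the difference between the genotypes called 1 gene, Miat (0.00858% of tested genes), by -1.54 (SE 0.18, adjusted p = 0.0114). Miat stood at 0.0849, 0.00917 and 0.0088 FPKM in CD28-deficient Nrp1+ Treg and at 0.677, 0.283 and 0.431 FPKM in CD28-deficient Nrp1-negative Treg, where its difference was -0.49 (adjusted p = 0.0489), against -2.04 in wild type. The level of the Nrp1-negative libraries was thus above 3 FPKM in all 3 wild type and below 1 FPKM in all 3 CD28-deficient ones. The filter on low values looked at wild type libraries only and admitted Miat because these 3 reached 1 FPKM. This call was lost with a pseudocount of 0.1 (adjusted p = 0.658), after quantile normalization (0.365), with no variance trend (0.088) without wild type Nrp1-negative replicate 3 (0.0504) and without CD28-deficient Nrp1+ replicate 3 (0.0613). Serpina3f came next to the threshold, with 1.25, 1.33 and 1.28 FPKM in CD28-deficient Nrp1+ and 0.837, 1.02 and 1.34 FPKM in CD28-deficient Nrp1-negative Treg (difference between genotypes -1.68, adjusted p = 0.0511).

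With the replicate block 74 genes differed between the genotypes, 29 upward and 45 downward, most of them microRNA, snoRNA and other small RNA genes. Among the named genes Miat, Serpina3f, Ccl5, Il10, Nkg7, Penk, Tigit, Ccl1 and Mmp9 were called in this fit. For Il10 the difference was -1.18 in wild type and 0.55 in CD28-deficient Treg, where it stood at 1.06, 1.91 and 0.815 FPKM in Nrp1+ and 0.103, 0.713 and 0.821 FPKM in Nrp1-negative libraries (adjusted p of the difference 4.13e-06 with the block and 0.842 without). For Ccl5 the values were -1.09 and 1.04 (adjusted p = 8.91e-07 with the block and 0.757 without). Tigit differed between the subsets by 1.35 in wild type and 2.91 in CD28-deficient Treg, and Penk by 2.96 and 4.56 (adjusted p = 0.000174 and 0.000116 with the block, 0.266 and 0.757 without).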

How the data were processed

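RNA was sequenced from sorted spleen T cells of mice. Per the labels' protocols, total RNA was extracted with TriReagent, libraries were made with the NEBNext Ultra kit and single reads of 50 nt were taken. Per the submitters' processing notes, Trimmomatic, TopHat2 2.0.11 and Cufflinks were used with the GRCm38 build. The authors deposited 1 table per library with a value per gene symbol, taken here as FPKM because Cufflinks gives that unit and because the values are fractions and none is below 0. For the annotation and the strand setting, the sources used here name nothing, so overlapping and antisense genes cannot be told apart. No counts enter the work, depth is therefore unknown, and neither count models nor counting errors are given.

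Groups were taken from the sample titles. A gene was tested if 3 or more of the 6 wild type Treg libraries reached an FPKM of 1, which left 11658 of 26665 genes. A gene below 1 FPKM in all libraries of 1 subset was thus tested only if all 3 of the other reached it. The log2(FPKM + 1) values were modelled in limma 3.58.1 (R 4.3.3) with 1 mean per group over the 12 Treg libraries of both genotypes and a variance trend, with residual degrees of freedom of 8 and prior ones of 5.25 (median). The CD28-deficient libraries enter the wild type comparison only through the spread. Tconv libraries stayed out of the main fit, since 1 of them was held to carry Treg transcripts and to widen the spread of Treg genes. A gene was called at a two-sided p, adjusted by Benjamini-Hochberg, under 0.05. The difference between genotypes was a contrast of the same fit. Code was tested on simulated data.

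The members and the 44 gene lists (608 genes, of which 586 are in the files and 481 were tested) were chosen with earlier results of these data known. Lists are described by counts and medians, with no test. Named genes were Nrp1, Foxp3 and Cd28, the 15 largest called differences each way without overlap (leaving out unnamed models, receptor segments and small RNA genes), at most 4 called members of each list, and a set of Treg genes whatever their p. This gave 102 genes, 89 of them called. Exceptions are marked as named after their values were seen. Some genes chosen by this rule are not reported here.

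Replicate numbers paired the libraries: after group means were removed, libraries of equal number correlated at 0.589, 0.274 and 0.472 in wild type and at 0.329, 0.139 and 0.352 in CD28-deficient Treg, all above 0.1. A block on the number within genotype was an alternative. It had 4 residual degrees of freedom and prior ones of 60.8 (median), so its p-values rest mainly on the spread shared over genes. The others were a pseudocount of 0.1, no filter, no variance trend, only the 6 or all 18 libraries, quantile normalization and leaving out each wild type library. Leaving out CD28-deficient Nrp1+ replicate 3 was added after seeing the data. Positions are from GENCODE release 21 on GRCm38, with 101 of 102 named genes at 1 position, and promoters from RefSeq on GRCm38.p6.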

Additional observations from a re-analysis of the deposited data

Results flagged for a closer look

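The difference between Nrp1+ and Nrp1-negative Treg was itself different in the 2 genotypes for Miat, by the test of the difference (limma, wild type minus CD28-deficient, -1.54 on the log2(FPKM + 1) scale, adjusted p = 0.0114). The 3 wild type Nrp1-negative libraries were above 3 FPKM and the 3 CD28-deficient ones below 1 FPKM. The filter on low values looked at wild type libraries only, and Miat passed it through its Nrp1-negative libraries alone. The call was lost under several settings, among them a pseudocount of 0.1 (adjusted p = 0.658). Groups of 3 libraries are too small for a check of single outlying values.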

How the results depend on the processing

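The count of 553 called genes moved to 301 with only the 6 libraries in the fit, to 1303 after quantile normalization, to 1644 with the replicate block and to 968 with the block on the 6 libraries alone. Leaving out 1 library gave 330 to 769 calls, lowest without Nrp1+ replicate 3 and highest without Nrp1-negative replicate 1. Without CD28-deficient Nrp1+ replicate 3, an alternative chosen after seeing the data, there were 491. A pseudocount of 0.1, no variance trend and all 18 libraries gave 497, 536 and 588 calls, and no filter 730 of 22396 genes. No called gene changed direction in any of these fits. The single call between genotypes became 0 with a pseudocount of 0.1 or no variance trend, 3 with no filter, 2 with all 18 libraries or after quantile normalization and 74 with the replicate block, and it was 0 to 4 with 1 library left out (0 without wild type Nrp1-negative replicate 3 or CD28-deficient Nrp1+ replicate 3, 4 without wild type Nrp1-negative replicate 1, and 2 without any 1 wild type Nrp1+ library). The cause of these shifts was not tested.

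Of the 89 named called genes, 59 were called with each of the 6 libraries left out in turn. The other 30 lost their call at least once, 29 of them without an Nrp1+ library and 17 without an Nrp1-negative library. Besides those given with such values above, they included Ly6c1, Il18rap, Bcl2l1, Pmaip1, Syt11, Rrm2, Top2a, Cd79b and Klrb1c, at adjusted p up to 0.19. Quantile normalization lost 6 named calls (Nkg7, Pmaip1, Rrm2, Hspb1, Cd22 and Klrb1c) and gained Ccr7 (adjusted p = 0.0168). With the replicate block no named call was lost and 5 were gained (Il2ra, Il10, Ccl5, Gpr83 and Ccr7). In the fit of the 6 libraries 30 were lost. The fit of all 18 libraries, in which Tconv also set the spread, gave more calls in all but lost 12 named ones, among them Ikzf2 (adjusted p = 0.0949), Lrrc32 (0.428), Nt5e (0.32), Tigit (0.0759), Tnfrsf4 (0.0751), Tnfrsf18 (0.0933), Itgav (0.111) and Bcl2a1b (0.0531), and called 8 Treg signature genes against 13. That fit gained Il10 (adjusted p = 0.0234). Without CD28-deficient Nrp1+ replicate 3, 8 named calls were lost, at adjusted p from 0.0519 to 0.0689.

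Without read counts, the error of low FPKM values cannot be given. The genes called lower in Nrp1+ Treg went from 53 to 286 without Nrp1-negative replicate 1.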
